A study of Mus musculus with 8 samples.

Results

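The genes described here are 9 members of the chemokine system and its inflammatory companions: the ligand Cxcl12 with its receptors Cxcr4 and Ackr3, the CC chemokines Ccl2, Ccl7 and Ccl8, the CXC chemokines Cxcl1 and Cxcl5, and the cytokine Il6. They were chosen by symbol, with earlier results of these data known, and each was read from the probe set that carries its symbol alone. Each gene had 1 such probe set, so 9 of the 19938 genes on the array were followed. Total RNA was measured on 8 Affymetrix arrays of cultured mouse spermatogonial stem cells, the germ cells of the testis that renew themselves and feed spermatogenesis. In 2 arrays the cells came from a serial-transplant line labelled with a donor of 1500 days and a culture time of 14 to 18 months (serial transplant, long culture). Another 3 arrays held cells of donors aged 8 days after the same length of culture (young donor, long culture). The other 3 held cells of equally young donors after only 7 to 10 weeks in culture (young donor, short culture). All 3 groups are therefore cultured cells, and none is taken straight from a testis. The labelled 1500 days and serial transplantation occur together in 1 group and cannot be told apart. The 1500 days are therefore not read here as the age of 1 animal. The labels used here name no mouse strain, feeder layer or medium. They also do not say that replicates are separate cultures, so a p-value here speaks of the spread among the arrays alone, which could be technical.

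Chemokines are small secreted proteins that bind receptors coupled to G proteins and steer the migration of cells along a gradient. CXCL12 is the main ligand of CXCR4. In the mouse testis it is made by Sertoli cells, and CXCR4 on undifferentiated spermatogonia helps stem cells to home to and stay in their niche, while ACKR3 binds the same ligand and removes it without coupling to G proteins. CCL2 and CCL7 draw monocytes through CCR2, CXCL1 and CXCL5 draw neutrophils through CXCR2, and interleukin 6 signals through IL6RA and the shared subunit IL6ST. Fibroblasts and other stromal cells secrete many of these proteins, and NF-kB is a textbook activator of their genes.

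Of the 9 genes, 6 were matched in the RefSeq promoter table (GRCm38.p6); Ccl2, Ccl7 and Cxcl5 are named only. The 250 bases before the start are shown for Cxcl12 (chr6:117168285-117168534 on the plus strand) and Cxcr4 (chr1:128592300-128592549 on the minus strand), the ligand and receptor that were both lower in serial-transplant cells than in short culture, and for Cxcl1 (chr5:90890995-90891244 on the plus strand) and Il6 (chr5:30012864-30013113 on the plus strand), which hold a kappaB match. All are written 5′ to 3′ along the gene. Capitals mark every match, on either strand, to the kappaB consensus, to the AP-1 motif TGANTCA, to the TATA box TATAAA or to the GC box GGGCGG; overlapping matches run together.
Cxcl12: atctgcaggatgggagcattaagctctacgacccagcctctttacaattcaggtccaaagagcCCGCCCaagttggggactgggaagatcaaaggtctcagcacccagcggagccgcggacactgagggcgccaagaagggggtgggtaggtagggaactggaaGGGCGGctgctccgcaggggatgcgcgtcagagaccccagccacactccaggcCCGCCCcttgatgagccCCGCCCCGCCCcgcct
Cxcr4: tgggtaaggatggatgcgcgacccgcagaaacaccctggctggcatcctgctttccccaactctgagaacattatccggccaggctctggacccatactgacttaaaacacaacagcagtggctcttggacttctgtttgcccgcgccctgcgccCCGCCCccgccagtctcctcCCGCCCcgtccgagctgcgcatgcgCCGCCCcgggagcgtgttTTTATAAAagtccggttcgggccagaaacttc
Cxcl1: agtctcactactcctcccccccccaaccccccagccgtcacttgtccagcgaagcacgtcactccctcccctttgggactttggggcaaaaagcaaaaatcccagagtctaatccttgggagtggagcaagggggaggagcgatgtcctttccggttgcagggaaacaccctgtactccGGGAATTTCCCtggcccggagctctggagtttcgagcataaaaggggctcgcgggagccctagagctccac
Il6: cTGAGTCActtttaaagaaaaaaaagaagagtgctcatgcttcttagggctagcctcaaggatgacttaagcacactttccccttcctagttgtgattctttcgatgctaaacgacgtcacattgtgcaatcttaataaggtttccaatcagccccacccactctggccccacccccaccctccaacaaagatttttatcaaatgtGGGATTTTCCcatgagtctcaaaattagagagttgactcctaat
The Cxcl12 window holds 5 GC boxes and is 64.4% G or C. The Cxcr4 window holds 3 GC boxes, and a TATA box lies 30 bases before its start and overlaps a match on the opposite strand. The Cxcl1 window holds a kappaB match on each strand, GGGAATTTCC at 71 bases before the start, which overlaps its partner, and no GC box. In the Il6 window the kappaB match GGGATTTTCC begins 44 bases before the start and the AP-1 match 249 bases before it. Over all 32851 promoter windows of this length in the table, 7.25% hold the kappaB consensus, 6.75% the AP-1 motif, 12.4% the TATA box and 32.7% the GC box. Of the 6 windows of these genes, 2, 1, 3 and 3 do, in that order of motifs. These matches describe letters and show no binding.

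Values below are log2 signals, so a difference of 1 is a doubling in signal, and no gene's level is ranked against another's because probe sets differ in brightness. A signal under 6.938, the overall median of the probe sets, was taken as dim, and one under 5.518, the highest lower quartile of any array, as within the background range. By the first mark 5 of the 9 genes were bright on average (Cxcl12, Cxcr4, Ccl2, Ccl7 and Cxcl1). Cxcl5 had a mean of 6.933, just under it. Ackr3 stayed under it on every array, and Ccl8 and Il6 lay in the background range on all 8. Young short-culture replicate 2 had the lowest array weight of the 8, 0.328. The lowest correlation within its group, 0.990, was the one between it and replicate 3. Young short-culture replicate 2 was the highest array for 7 of the 9 genes, and serial-transplant replicate 2 was the lowest for 6. Results are therefore also given without these arrays where that matters.

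**Figure D1:**
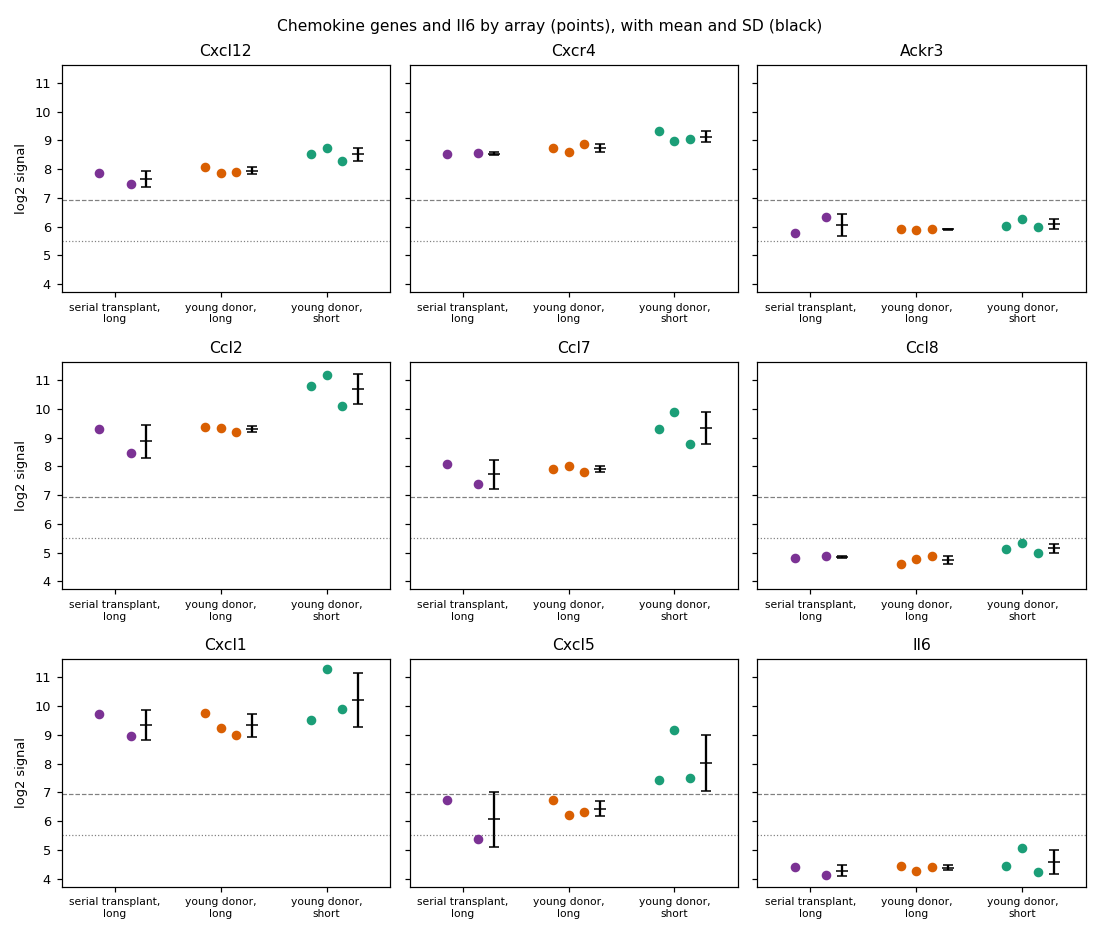
Log2 signal of the 9 genes (vertical axis) on each array, grouped by culture; points are arrays, black marks are group means with SD, the dashed line marks dim signal (6.938, the overall median) and the dotted line the highest lower quartile of an array (5.518). For Ccl2 and Ccl7 all 5 long-culture arrays lie below all 3 short-culture arrays, while Ccl8 and Il6 stay under the dotted line.

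After long culture of young-donor cells, 5 of the 9 genes were lower than in short culture and none was higher. They were Ccl7, Ccl2, Cxcl5, Cxcl12 and Ccl8. The test was limma over all 28943 probe sets with a Benjamini-Hochberg adjusted p under 0.05, and in it 6.69% of all 19938 genes were called lower and 6.1% higher. All 9 differences were below 0, with a median of -0.58 against -0.04 for all genes. In 7 of the 9 genes the arrays of the groups did not overlap and long culture was lower, which held for 17.8% of all genes. Because the genes were chosen with earlier results known, the shares of all genes here and below give scale only. They are no test of the set. Fewer cells of a producing type and less RNA per cell cannot be told apart in these bulk samples.

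Within the CXCL12 axis the ligand fell in both long-culture groups and the signalling receptor in the serial-transplant line, each against short culture. Cxcl12 (chromosome 6) had log2 signals of 7.85 and 7.47 in serial-transplant long culture, 8.09, 7.86 and 7.89 in young-donor long culture, and 8.52, 8.74 and 8.30 in young-donor short culture. Every long-culture array lay below every short-culture array. Young-donor long culture averaged 7.95 ± 0.12 and short culture 8.52 ± 0.22 (SD, n = 3 each), a log2 difference of -0.58 ± 0.14 (SE; limma adjusted p = 0.0229). The fall was no longer called when young long-culture replicate 2 (adjusted p = 0.0711), replicate 3 (0.0920), young short-culture replicate 1 (0.0559) or replicate 2 (0.0590) was left out. Against short culture, serial-transplant cells were lower by -0.86 ± 0.15 (adjusted p = 0.00796), a call lost without serial-transplant replicate 2 (adjusted p = 0.145).

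Cxcr4 (chromosome 1), the receptor through which CXCL12 signals, had log2 signals of 8.51 and 8.57 in serial-transplant long culture, 8.74, 8.60 and 8.88 in young-donor long culture, and 9.34, 8.98 and 9.04 in young-donor short culture. The 3 groups did not overlap, with serial-transplant arrays lowest and short-culture arrays highest. Serial-transplant cells averaged 8.54 ± 0.04 (SD, n = 2) and short culture 9.12 ± 0.19 (SD, n = 3), a difference of -0.59 ± 0.13 (SE; limma adjusted p = 0.0214). That call was lost without serial-transplant replicate 1 (adjusted p = 0.111) or 2 (0.161) or young short-culture replicate 1 (0.0580). Young-donor long culture, at 8.74 ± 0.14 (SD, n = 3), differed from short culture by -0.38 ± 0.12, which missed the threshold (limma adjusted p = 0.0628). It passed without young short-culture replicate 2 (adjusted p = 0.0499). It also passed with quantile normalization (0.0302), array weights (0.0457) or the filter on dim probe sets (0.0464). Ackr3 (chromosome 1), the scavenging receptor, had 5.78 and 6.34 in serial-transplant cells, 5.91, 5.89 and 5.92 in young-donor long culture and 6.03, 6.28 and 5.98 in short culture. It was under the dim mark throughout, and neither long-culture group differed from short culture past the threshold (limma adjusted p = 0.429 for young donors and 0.936 for the serial-transplant line).

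Ccl2 and Ccl7, neighbouring genes for monocyte attractants, had the firmest falls of the set. Ccl2 (chromosome 11) had log2 signals of 9.28 and 8.47 in serial-transplant long culture, 9.36, 9.33 and 9.18 in young-donor long culture, and 10.79, 11.16 and 10.11 in young-donor short culture. Long and short culture did not overlap. Young-donor long culture averaged 9.29 ± 0.10 and short culture 10.69 ± 0.53 (SD, n = 3 each), a difference of -1.40 ± 0.25 (SE; limma adjusted p = 0.00674). The 95% confidence interval ran from -1.94 to -0.85. Serial-transplant cells were lower than short culture by -1.81 ± 0.28 (adjusted p = 0.00476).

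Ccl7 (chromosome 11) had log2 signals of 8.08 and 7.37 in serial-transplant long culture, 7.89, 8.00 and 7.80 in young-donor long culture, and 9.31, 9.90 and 8.79 in young-donor short culture. As for Ccl2, the short-culture arrays were all higher than the long-culture arrays and replicate 2 was the highest of them. Young-donor long culture averaged 7.90 ± 0.10 and short culture 9.33 ± 0.56 (SD, n = 3 each), a difference of -1.44 ± 0.25 (SE; limma adjusted p = 0.00590). Serial-transplant cells were lower than short culture by -1.61 ± 0.28 (adjusted p = 0.00675). In young-donor cells Ccl2 and Ccl7 stayed past the threshold whichever array was left out, with adjusted p of at most 0.0364 and 0.0320. Against short culture, the falls in the serial-transplant line were lost without its replicate 2 (adjusted p = 0.0907 for Ccl2 and 0.127 for Ccl7).

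Across the 8 arrays the profiles of Ccl2 and Ccl7 were the closest of all 36 pairs among the 9 genes, with a root mean square difference of 0.12 log2 units after each gene was centred on its own mean. Ccl8 (chromosome 11), another gene of that cluster, ran between 4.60 and 5.33 on the 8 arrays. Its means were 4.86 ± 0.04 in serial-transplant cells (SD, n = 2), 4.75 ± 0.14 in young-donor long culture and 5.15 ± 0.17 in short culture (SD, n = 3 each). The fall of -0.40 ± 0.11 in young-donor cells passed narrowly (limma adjusted p = 0.0454), lies wholly in the background range, and missed the threshold when any array other than young short-culture replicate 3 was left out (adjusted p from 0.0647 to 0.168).

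The neutrophil attractants Cxcl1 and Cxcl5 had the widest SDs of the 9 genes within each young-donor group. Cxcl5 (chromosome 5) had log2 signals of 6.73 and 5.39 in serial-transplant long culture, 6.72, 6.22 and 6.33 in young-donor long culture, and 7.44, 9.15 and 7.49 in young-donor short culture. Long and short culture did not overlap, but short-culture replicate 2 was well above its partners. Young-donor long culture averaged 6.42 ± 0.26 and short culture 8.03 ± 0.97 (SD, n = 3 each), a difference of -1.60 ± 0.42 (SE; limma adjusted p = 0.0336). Without short-culture replicate 2 the difference was -1.04 ± 0.30 and missed the threshold (adjusted p = 0.0572), as it did without young long-culture replicate 1 (0.0715), 2 (0.0944) or 3 (0.110). Both long-culture means lie under the dim mark, so the difference may understate the change. Serial-transplant cells were lower than short culture by -1.97 ± 0.47 (adjusted p = 0.0268), and by -1.30 ± 0.54 without serial-transplant replicate 2 (adjusted p = 0.337).

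Cxcl1 (chromosome 5) had log2 signals of 9.72 and 8.97 in serial-transplant long culture, 9.75, 9.22 and 9.00 in young-donor long culture, and 9.50, 11.27 and 9.88 in young-donor short culture. The groups overlapped, since young long-culture replicate 1 lay above short-culture replicate 1. Young-donor long culture averaged 9.33 ± 0.39 and short culture 10.21 ± 0.93 (SD, n = 3 each), and the difference of -0.89 ± 0.38 did not pass (SE; limma adjusted p = 0.165). It was -0.36 without short-culture replicate 2. Il6 (chromosome 5) had 4.41 and 4.14 in serial-transplant cells, 4.43, 4.27 and 4.42 in young-donor long culture, and 4.45, 5.05 and 4.24 in short culture. These values lie in the background range, and the differences of -0.21 ± 0.18 in young-donor cells and -0.31 ± 0.20 in the serial-transplant line against short culture did not pass (limma adjusted p = 0.500 and 0.421).

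Serial-transplant cells against young-donor cells of short culture gave 5 of 9 genes lower and none higher, beside 5.96% of all genes called lower and 4.1% called higher in that comparison. The genes were Ccl2, Cxcl5, Ccl7, Cxcl12 and Cxcr4, so Cxcr4 passed here and Ccl8 did not (-0.30 ± 0.13, limma adjusted p = 0.202). Arrays did not overlap, with the serial-transplant arrays lower, for 6 of the 9 genes and for 20.4% of all genes. This comparison shares its short-culture arrays with the one between young-donor groups, so they are not independent. Without serial-transplant replicate 2 none of the 9 genes passed, and with 1 array left in that group it was assumed to vary like the other groups.

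Serial-transplant against young-donor cells, both after long culture, showed none of the 9 genes past the threshold in limma, and none at an unadjusted p under 0.05. The share of all genes called was 0%, while 2079 of 28943 probe sets had an unadjusted p under 0.05. For the bright genes the 95% confidence intervals of the log2 difference ran from -0.62 to 0.06 for Cxcl12, from -0.50 to 0.09 for Cxcr4, from -1.02 to 0.19 for Ccl2, from -0.77 to 0.43 for Ccl7 and from -0.92 to 0.95 for Cxcl1. A halving of Ccl2 between these lines therefore lies just inside the interval. Cxcl12 and Cxcr4 were the 2 genes whose serial-transplant arrays all lay below the young-donor arrays, which was so for 11.4% of all genes. The means behind them were 7.66 ± 0.27 (n = 2) and 7.95 ± 0.12 (n = 3) for Cxcl12, in serial-transplant and young-donor cells in turn (SD).

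**Figure D2:**
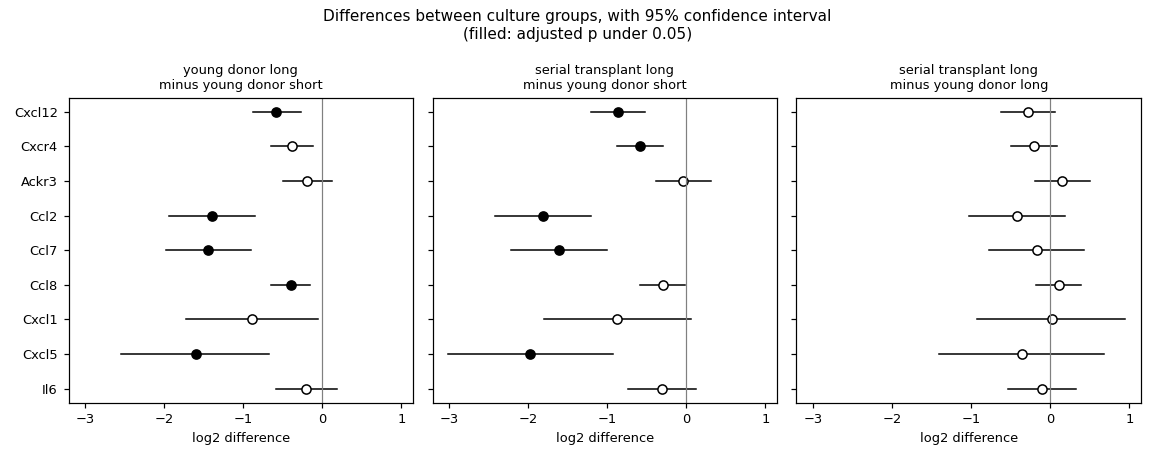
Log2 differences of the 9 genes (horizontal axis) with 95% confidence intervals from limma for the 3 comparisons; filled points have an adjusted p under 0.05. Both comparisons with short culture have 5 filled points, all below 0, and the comparison of the long-culture groups has none.

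The genes that fell lie beside chemokine genes whose differences did not pass. On chromosome 11 the RefSeq order is Ccl2, Ccl7, Ccl11, Ccl12, Ccl8 and Ccl1, and of the other chemokine genes there only Ccl8, at -0.40, passed. Ccl11, an eosinophil attractant, differed by -0.12 ± 0.11 (limma adjusted p = 0.553) and Ccl12 by -0.16 ± 0.11 (adjusted p = 0.408) between young-donor long and short culture, and Ccl11, Ccl12 and Ccl1 were under the dim mark on every array. On the other side of Ccl2, 1700071K01Rik was bright on all 8 arrays and differed by 0.08 ± 0.10 (adjusted p = 0.633). On chromosome 5 the order is Cxcl5, Ppbp, Pf4, Cxcl3, Cxcl15, Cxcl1 and Cxcl2. The 5 genes of that stretch other than Cxcl5 and Cxcl1 were dim on all arrays and did not pass, with differences between -0.34 for Cxcl2 and -0.15 for Pf4. Mthfd2l, a mitochondrial folate enzyme next to Cxcl2, fell by 0.78 on the log2 scale (SE 0.19, adjusted p = 0.0218). Close chemokine paralogs can share probe targets, which was not tested.

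**Figure D3:**
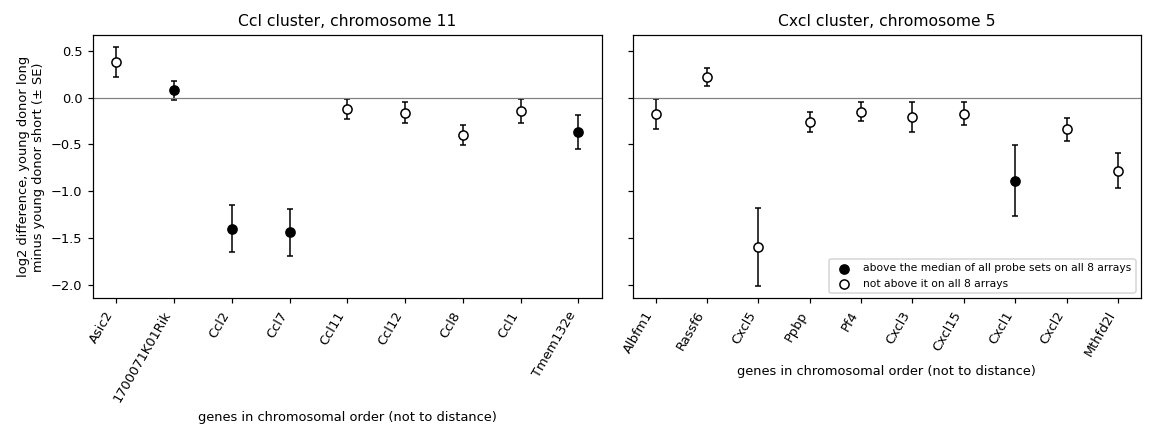
Log2 difference between young-donor long and short culture (vertical axis, with SE) for protein-coding genes in chromosomal order around Ccl2 and Ccl7 (left) and Cxcl5 and Cxcl1 (right); filled points are genes that are not dim on any of the 8 arrays (above 6.938). Ccl2 (-1.40) and Ccl7 (-1.44) lie well below the neighbours Ccl11 (-0.12) and Ccl12 (-0.16).

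Of the other chemokines, Ccl9, Ccl5, Cxcl16, Cxcl10 and Cx3cl1 fell with long culture. In young-donor cells 6.69% of all genes were called lower, so these few calls describe single genes and not the family. Of 15 other CC chemokines measured, 2 were lower in young-donor long culture and none higher, with a list median of -0.14 against -0.04 for all genes. They were Ccl9, a myeloid attractant (-1.17 ± 0.30, limma adjusted p = 0.0316), and Ccl5, a T cell attractant (-0.36 ± 0.10, adjusted p = 0.0484). Of 14 other ligands of the CXC, CX3C and XC classes, 3 were lower and none higher (list median -0.19). Cxcl16, which also exists as a membrane-bound form, averaged 6.77 ± 0.12 in long culture and 7.74 ± 0.41 in short culture (-0.98 ± 0.18, adjusted p = 0.00715). Cxcl10, an interferon-induced ligand of CXCR3, differed by -0.95 ± 0.19 (adjusted p = 0.0106) and the membrane-anchored Cx3cl1 by -0.58 ± 0.13 (adjusted p = 0.0196). The same 5 genes were lower in serial-transplant cells than in short culture, from -0.44 for Ccl5 to -1.63 for Ccl9. In young-donor cells no CC ligand fell when any 1 of the 3 long-culture arrays was left out, and 1 fell without short-culture replicate 2. Of the other ligands, 2 fell without long-culture replicate 1, 1 without long-culture replicate 3 and 2 without short-culture replicate 2.

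The other chemokine receptors gave little signal. None of 20 measured receptors had a mean above the dim mark, and 9 stayed in the background range on every array, Cxcr2, the receptor of CXCL1 and CXCL5, among them. The 1 receptor that passed, where 6.69% of all genes were called lower, was Ccr2, the receptor of CCL2 and CCL7. It is named here after its value was seen. It averaged 4.17 in young-donor long culture and 5.34 in short culture, a difference of -1.17 ± 0.13 (limma adjusted p = 0.00123) that lies in the background range.

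The list of NF-kB signalling genes and targets held more falls. Of 25 measured genes of it, 11 were lower in young-donor long culture and none higher, where 6.69% of all genes were called lower. The list median was -0.45. Nfkbie, an inhibitor that NF-kB itself induces, averaged 7.45 ± 0.03 in long culture and 8.74 ± 0.20 in short culture (SD, n = 3 each; -1.28 ± 0.18, limma adjusted p = 0.00290). Nfkb2, a subunit precursor, differed by -1.02 ± 0.13 (adjusted p = 0.00208), the pattern receptors Tlr4 and Tlr2 by -1.19 ± 0.17 (adjusted p = 0.00303) and -1.13 ± 0.27 (adjusted p = 0.0229), and the adhesion molecule Vcam1 by -1.36 ± 0.32 (adjusted p = 0.0210). Of this list 7 genes fell without long-culture replicate 1, 7 without long-culture replicate 2, 5 without long-culture replicate 3 and 7 without short-culture replicate 2. Against short culture, 10 of the 25 were lower in serial-transplant cells, and 1 was without serial-transplant replicate 2.

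Of 16 measured genes of the Il6 family and its signalling, 4 were lower and 1 higher in young-donor long culture (list median -0.05). Among all genes 6.69% were called lower and 6.1% higher. Osmr, the oncostatin M receptor, averaged 8.45 ± 0.12 in long culture and 9.58 ± 0.58 in short culture (-1.13 ± 0.25, limma adjusted p = 0.0180). Il6st, the shared signalling subunit, differed by -0.60 ± 0.16 (adjusted p = 0.0323) and Il6ra, the receptor of interleukin 6, by -0.56 ± 0.13 (adjusted p = 0.0203). Cntfr, the receptor of ciliary neurotrophic factor, was higher by 0.37 ± 0.10 (adjusted p = 0.0326). The fourth gene that fell was Lif, at -0.64 and under the dim mark, named after its value was seen. In this list 1 gene fell without long-culture replicate 2, none fell or rose without long-culture replicate 3, and 3 fell and 2 rose without short-culture replicate 2. None rose without long-culture replicate 1 or without short-culture replicate 1 or 3.

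Of 18 other secreted inflammatory factors, 7 were lower in young-donor long culture and none higher (list median -0.27). The share of all genes called lower there was 6.69%. Saa3, an acute-phase protein, averaged 9.20 ± 0.28 in long culture and 11.34 ± 1.06 in short culture (SD, n = 3 each; -2.14 ± 0.49, limma adjusted p = 0.0196). Il33, an alarmin of stromal and epithelial cells, differed by -1.57 ± 0.34 (adjusted p = 0.0163), Csf1, the macrophage growth factor, by -1.22 ± 0.27 (adjusted p = 0.0163) and Lcn2, an iron-sequestering acute-phase protein, by -1.06 ± 0.26 (adjusted p = 0.0256). In young-donor cells 3 of the 18 fell without long-culture replicate 1, 3 without replicate 2 and 2 without replicate 3 of that group. In serial-transplant cells against short culture 7 of the 18 were lower, including Csf1 (-1.50) and Il33 (-1.99). The Il6-family counterpart was 3 lower and none higher of 16, with Osmr at -1.54. In that comparison 1 Il6-family gene fell without serial-transplant replicate 1, and 4 of the 18 secreted factors did. Without serial-transplant replicate 2, no gene of the chemokine, receptor, Il6 family, secreted factor or fibroblast lists passed in the comparison of that line with short culture. Between the 2 long-culture groups no gene of these 6 lists passed in limma, where 0% of all genes were called.

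**Figure D4:**
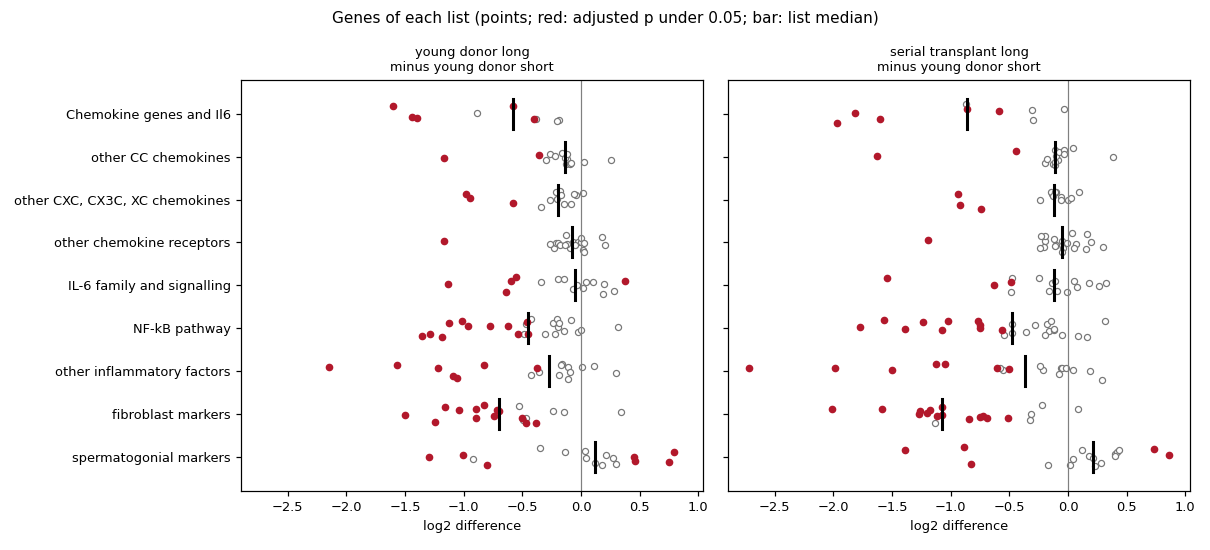
Log2 difference of every measured gene (points; red where the adjusted p is under 0.05) by list, for young-donor long against short culture (left) and serial-transplant long against young-donor short culture (right), with list medians as bars. In the left panel the medians are -0.58 for the 9 genes, -0.45 for the NF-kB pathway and -0.70 for fibroblast markers, against 0.12 for spermatogonial markers. The spermatogonial list has 4 genes called higher and 3 called lower in that panel.

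Most fibroblast markers fell with these genes in young-donor long culture, where 6.69% of all genes were called lower. Of 19 measured fibroblast markers, 17 were bright on average and 13 were lower in young-donor long culture, with none higher (list median -0.70). Their mean log2 signal was 8.84 to 9.35 in serial-transplant cells, 9.32 to 9.36 in young-donor long culture and 9.80 to 10.29 in short culture. Serial-transplant replicate 2 had the lowest mean of all arrays (8.84) and young short-culture replicate 2 the highest (10.29). The same arrays were lowest and highest for Ccl2, Ccl7, Cxcl5, Cxcl1 and Cxcl12. This was not particular to fibroblast markers. It also held for the means of the NF-kB list (7.68 and 8.49), the other secreted factors (6.41 and 7.36) and the Il6 family (8.34 and 8.72). Young short-culture replicate 2 was also highest for the macrophage (6.43), mast cell (7.11) and T and NK cell (6.16) lists. It was not highest for the Leydig, Sertoli or spermatogonial lists. Pdgfra, a receptor that marks mesenchymal cells, averaged 10.32 ± 0.11 in long culture and 11.82 ± 0.54 in short culture of young-donor cells (SD, n = 3 each; -1.50 ± 0.30, limma adjusted p = 0.0105), and Dcn, a matrix proteoglycan, differed by -1.16 ± 0.24 (adjusted p = 0.0138). In young-donor cells 4 to 6 fibroblast markers fell when 1 long-culture array was left out, and 9 to 13 when 1 short-culture array was. Without long-culture replicate 2, 1 fibroblast marker rose.

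Some blood cell and Leydig cell markers, which were dimmer, also fell, where 6.69% of all genes were called lower. The largest falls in young-donor cells were Srgn (-2.90 ± 0.27, limma adjusted p = 0.000419) and Cpa3 (-2.79 ± 0.52, adjusted p = 0.00829) of the mast cell list. Next came Cyp11a1 of Leydig cells (-2.35 ± 0.24, adjusted p = 0.000678) and Laptm5 of macrophages (-2.29 ± 0.23, adjusted p = 0.000598). Each exceeded the largest fibroblast fall (Pdgfra, -1.50). Their short-culture means were 7.20 to 7.71, and their long-culture means lay in the background range. Of 13 macrophage markers 4 were lower and none higher, and 1 had a mean above the dim mark. Their mean log2 signal was 5.57 to 5.61 in serial-transplant cells, 5.56 to 5.63 in young-donor long culture and 6.06 to 6.43 in short culture. Of 10 mast cell markers 4 were lower and 1, Kit, which spermatogonia also express, was higher, and their mean signal was 5.73 to 5.78 in serial-transplant cells, 5.67 to 5.80 in young-donor long culture and 6.14 to 7.11 in short culture. Of 10 T and NK cell markers 4 were lower, with means of 5.38 to 5.41, 5.36 to 5.52 and 5.77 to 6.16 in the same groups. Of 7 Leydig cell markers 4 were lower, at 5.58 to 5.73, 5.65 to 5.69 and 6.32 to 6.65. Of 10 Sertoli cell markers 1, Wt1, was higher (0.90 ± 0.17, limma adjusted p = 0.00838) and none was lower, and none of 9 endothelial markers passed. In serial-transplant cells against short culture the Sertoli marker Sox9 was lower (-1.07 ± 0.21, limma adjusted p = 0.0101). Trf (1.21 ± 0.27, adjusted p = 0.0199) and Wt1 (0.73 ± 0.19, adjusted p = 0.0344) were higher there. Several defining markers lay in the background range on all 8 arrays, namely Adgre1, Itgam and Cd163 of macrophages, Fcer1a and Ms4a2 of mast cells, Cd4, Klrb1c and Gzma of lymphocytes, and Cyp17a1, Hsd3b1 and Hsd17b3 of Leydig cells. With young-donor long-culture replicate 1 or 3 left out, 2 mast cell and 2 Leydig cell markers fell. The part of any of these cell types in the chemokine falls was not tested.

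Markers of the labelled cell type were bright, as all 17 measured markers of undifferentiated spermatogonia had means above the dim mark. Their mean log2 signal was 9.59 to 9.60 in serial-transplant cells, 9.40 to 9.57 in young-donor long culture and 9.27 to 9.68 in short culture, lowest in short-culture replicate 2. Of the 17, 4 were higher and 3 lower in young-donor long culture, with a median of 0.12. Among all genes 6.69% were called lower and 6.1% higher. The 3 lower were Lhx1 (-1.3 ± 0.23, limma adjusted p = 0.00626), Id4 (-0.8 ± 0.12, adjusted p = 0.00353) and Bcl6b (adjusted p = 0.005). Bcl6b averaged 9.75 in long and 10.75 in short culture. The 4 higher were Nanos3 (0.79 ± 0.13, limma adjusted p = 0.00524), Ret (0.75 ± 0.19, adjusted p = 0.0281), Dazl (0.46 ± 0.11, adjusted p = 0.0254) and Lin28a (0.45 ± 0.11, adjusted p = 0.0219). In serial-transplant cells against short culture Lhx1, Id4 and Bcl6b were again lower (-1.39, -0.83 and -0.89 in turn). Nanos3 (0.86) and Lin28a (0.74) were higher there. The number lower stayed 3 whichever young-donor array was left out. The number higher was 1 without long-culture replicate 1, long-culture replicate 3 or short-culture replicate 2, and 2 without short-culture replicate 1.

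**Figure D5:**
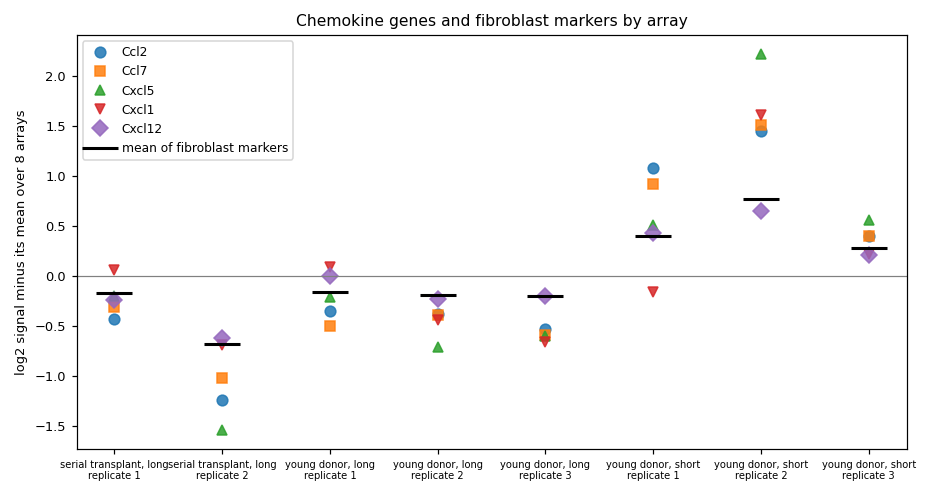
Log2 signal of 5 chemokine genes and the mean of the fibroblast markers on each array (vertical axis, each centred on its mean over the 8 arrays). Serial-transplant replicate 2 is low and young short-culture replicate 2 high for all 5 genes and for the fibroblast mean (8.84 and 10.29 before centring). The mean of the NF-kB list, not drawn, was also lowest and highest on these arrays (7.68 and 8.49).

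Genes whose profile over the 8 arrays was most like a chemokine's were sought among 10590 bright named genes, for the 3 genes whose group means spanned at least 1 log2 unit. Likeness was the root mean square difference between centred profiles, in log2 units, and the profiles share the same 8 arrays. Closest to Ccl2 were Pcdh7, a protocadherin (0.10), Antxr2, a matrix-binding receptor (0.11), and Pdgfc, a growth factor for mesenchymal cells (0.12). Closest to Ccl7 were the membrane protein gene Tmem176b (0.11), the collagen receptor Ddr2 (0.12) and the ciliary gene Cc2d2a (0.12). Closest to Cxcl5 were Capn6, a calpain without protease activity (0.10), the peptidase Mme (0.16) and the death receptor Fas (0.19). Antxr2 averaged 7.86 in serial-transplant cells, 8.17 in young-donor long culture and 9.63 in short culture, and Ddr2 averaged 8.44, 8.67 and 10.01 in the same groups.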

How the data were processed

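The deposited values are log2 signals per probe set and array. The submitters' processing notes name Partek 6.4 and RMA; the settings are not given here, there are no detection calls, and the log2 scale was read from the values (2.16 to 14.81). RMA signals of weak genes merge with background, so low differences are compressed. Of 35557 rows, 6614 in the unbroken run of numbers that opens the table were taken as controls and left out, leaving 28943 probe sets, of which 21789 carry 1 symbol, 1621 several and 5533 none in the platform annotation. A gene was read from its brightest probe set. Array medians spanned 6.90 to 6.98; precision is limited by having 8 arrays. No arrays held identical values.

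Group contrasts came from limma 3.58.1 under R 4.3.3, with 1 coefficient per group over 8 arrays and eBayes (residual df 5, prior df 6.28). P-values are two-sided and adjusted by Benjamini-Hochberg across every probe set; the step was tested on simulated data. Replicate numbers are shared between groups, but arrays were not treated as paired in the main fit. Deviations of same-numbered young arrays correlated at 0.08, 0.18 and 0.10, and those of other young pairs between groups at -0.28 to 0.25. Members, 6 pathway lists and 8 marker lists were chosen with earlier results of these data known. Up to 5 genes per pathway list and comparison are named, by size among called genes whose higher mean was above the median. Genes of the marker lists were named as examples and not by this rule. Alternatives were the variance trend, array weights, arrays in the fit, a dim filter, control rows kept, quantile normalization, median centring, a minimum difference of 1, the replicate block, each array left out and the mean of a gene's probe sets; counts for lists without single arrays were added after seeing the data.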

Additional observations from a re-analysis of the deposited data

How the results depend on the processing

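For young-donor long against short culture the 5 genes called became 2 with control rows kept, 3 with a minimum difference of 1, and 2 to 5 with single arrays left out; the 3260 probe sets called became 5078 with array weights, 1542 with control rows kept, 396 with the minimum difference and 1085 to 3195 with single arrays left out. For the serial-transplant line against short culture the 5 genes called became 3 with the fit limited to those groups, 3 with control rows kept, 3 with the minimum difference and 0 to 5 with single arrays left out; the 2528 probe sets called became 1252, 1079 and 564 under the same settings and 66 to 2817 with single arrays left out, 66 without serial-transplant replicate 2. Between the long-culture groups no member was called under any setting, and the 0 probe sets called became 22 with array weights, 15 with the fit limited to those groups, 4 with the replicate block and 0 to 11 with single arrays left out. The causes were not tested, except that settings with fewer arrays or more rows change the test itself.

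With quantile normalization 4 genes were called in young-donor cells. Cxcr4 then passed (limma adjusted p = 0.0302), while Cxcl5 (0.0593) and Ccl8 (0.0809) did not. With the replicate number as a block, 4 genes and 2754 probe sets were called in young-donor cells. For the serial-transplant line against short culture, 5 genes and 2467 probe sets were. Among short-culture arrays, young long-culture replicates 1 and 2 correlated best with their own number and replicate 3 did not. Median centring moved the higher share of calls to 59.7% from 48.3% in young-donor cells (1974 higher, 1331 lower) and to 51.1% from 41.0% for the serial-transplant line against short culture (1297 higher, 1242 lower), but no called member changed sign. Over 474 recomputed member differences, 417 kept direction and side of the threshold, 39 lost the call, 4 gained it and 14 changed sign. All 14 were uncalled: Ackr3 against short culture in the serial-transplant line (0.03 with array weights, 0.02 with quantile normalization, 0.01 with median centring, -0.31 to 0.24 with single arrays left out), Il6 in young-donor cells (-0.38 to 0.03), and between the long-culture groups Cxcl1 (-0.15 with the replicate block, -0.36 to 0.39), Ackr3 (-0.12 to 0.43), Ccl7 (-0.53 to 0.19), Cxcl5 (-1.03 to 0.30) and Il6 (-0.23 to 0.03). Signal over background limits Ackr3, Ccl8 and Il6.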
